A study of Mus musculus with 26 samples.

Results

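Gene expression in the medial compartment of sham-operated mouse knees 8 weeks after surgery was compared with that of unoperated knees at time 0. Sham surgery is the control operation of the study, whose other mice had destabilization of the medial meniscus (DMM), a surgical model of osteoarthritis. The comparison was chosen by sample title, and it used 6 of the 26 arrays of the series, 3 for sham at 8 weeks and 3 for time 0. The sham 8 weeks mice were male C57BL/6 animals that had surgery when 12 weeks old and were 20 weeks old at collection. The time 0 mice were male C57BL/6 mice of 12 weeks with no operation. The labels name no transgene and no drug treatment for either group. Each array was run on total RNA pooled from 3 mice, so that the pool is the unit of replication and the spread between single mice is not seen. The groups differed both in surgery and by 8 weeks of age, and these cannot be told apart here.

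The tissue block took in the cartilage on the tibial and femoral sides, the bone beneath it, meniscus, ligaments, and the capsule with its synovium, and muscle outside the joint had been removed. Cartilage gets its strength from fibrils of type II collagen with types IX and XI, and its resistance to compression from aggrecan held on hyaluronan. As the skeleton of a young mouse matures, chondrocytes of the growth cartilage enlarge, make type X collagen and are replaced by bone, which osteoclasts keep remodeling. The bone marrow next to the cartilage makes blood cells, houses plasma cells and holds fat cells. Defining markers of the labelled tissue were present in all 6 pools, with type II collagen (Col2a1) at log2 signals of 12.21 or more, lubricin (Prg4), which coats the joint surface, at 14.42 or more, and the bone collagen gene Col1a1 at 13.57 or more.

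Values are log2 signals, where a difference of 1 is a 2-fold change, and the brightest probe set of a gene stands for it. Differences are given as the log2 ratio of sham 8 weeks over time 0, with the standard error (SE) of the limma fit over all 26 arrays. Calls were made where the Benjamini-Hochberg adjusted p, taken over all probe sets tested, was under 0.05. Of 22513 probe sets tested, 211 were called (0.937%), 91 higher and 120 lower in sham joints at 8 weeks. The balance of the directions depended on the setting, with 59 higher and 125 lower with quantile normalization added. There were 149 higher and 49 lower without sham 8 weeks pool 1, and 101 higher and 71 lower under a stricter signal filter. With array weights there were 2542 higher and 1627 lower, but the estimation of these weights did not converge. It gave sham 2 weeks pool 2 a weight of 0. At the level of genes, 119 of 11503 were called. There were 66 genes lower (0.574% of the genes tested) and 53 genes higher (0.461%), and the median ratio of all genes tested was 0.01. The median ratio was -0.62 for the genes that fell and 0.36 for the genes that rose. At least a 2-fold difference was reached by 9 lower and 4 higher genes. The pools of both groups did not overlap for any of the 119 genes, beside 7.99% of all genes tested with every sham 8 weeks pool below every time 0 pool and 10.9% with every one above.

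The pools also differed in the level of skeletal muscle genes. The mean level of 20 skeletal muscle genes was 12.56, 12.32 and 11.85 in the sham 8 weeks pools, against 10.07, 11.28 and 10.75 in the time 0 pools, with no overlap. All 20 genes had ratios above 0, between 0.30 and 2.87, and none was at 0 in any pool. In 19 of them all sham 8 weeks pools lay above all time 0 pools, against 10.9% of all genes tested. With this muscle level as a covariate, 18 probe sets were called, 13 higher and 5 lower, and 10 of the 119 genes were among the calls. Leaving out 1 pool at a time gave between 14 and 198 called probe sets, with 90 left without sham 8 weeks pool 3, 18 without sham 8 weeks pool 2, and 30, 31 and 14 without time 0 pools 1, 2 and 3. Fitted with the 6 arrays alone, 2 probe sets were called and Jchain was the only called gene. All 119 genes kept the sign of their ratio with the muscle covariate. With a pool left out or the 6 arrays alone the sign could not change, since the pools of these genes did not overlap. Which sham 8 weeks pool stood apart depended on the principal component of all arrays. On the first (53.8% of the variance) it was pool 1, with 25.7 against 9.18 and 7.5 for sham pools 2 and 3. The time 0 pools had -8.9, 6.24 and 2.64 there. On the second (9.24%) it was pool 3, with 29.9 against -9.17 and 5.7 for sham pools 1 and 2. The time 0 pools had 6.46 to 14.6 there.

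**Figure D1:**
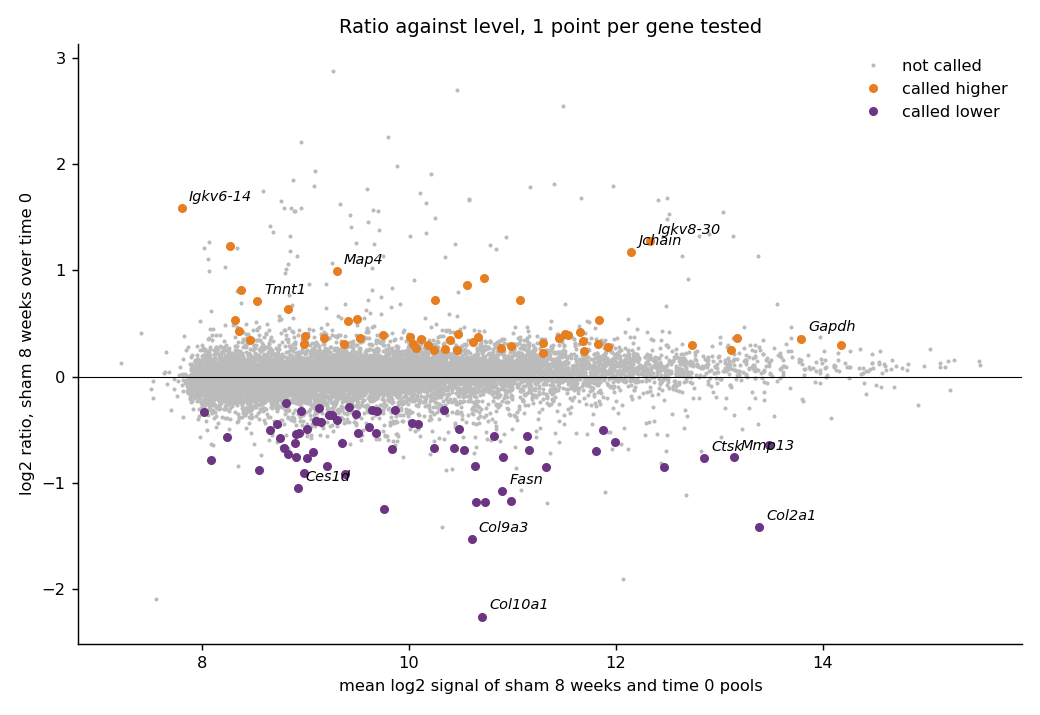
Log2 ratio of sham 8 weeks over time 0 (vertical axis) against the mean log2 signal of both groups (horizontal axis), with 1 point per gene for the 11503 genes tested. The 53 genes called higher and the 66 called lower are coloured, and ratios of the other genes are in grey. Among the called genes, Col10a1 has the lowest called ratio, -2.26, and Igkv6-14 the highest, 1.59. The time 0 pools of Igkv6-14 lie below the signal filter of 7.93.

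Type X collagen (Col10a1, chromosome 10), the collagen of hypertrophic chondrocytes, showed the largest fall. It had log2 signals of 9.11, 9.01 and 10.60 in the sham 8 weeks pools, against 11.85, 11.88 and 11.77 in the time 0 pools. The time 0 pools were nearly equal, sham pool 3 stood above the other sham pools, and all sham pools lay below all time 0 pools. The ratio was -2.26 ± 0.34 (SE, n = 3 pools each), a 4.78-fold lower level, with an adjusted p of 0.00372. Without sham 8 weeks pool 3 the ratio was -2.77. With the muscle level as a covariate it was -1.87 with an adjusted p of 0.0651. Over the 16 alternative fits, those with array weights among them, its adjusted p ranged from 6.5e-06 to 0.0956.

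Of the 7 hypertrophic chondrocyte genes tested, 3 fell, against 0.574% of all genes tested. In 6 of them sham 8 weeks pools lay below all time 0 pools, against 7.99% of all genes tested. In a bulk sample, fewer cells of a type and less RNA per cell cannot be told apart. Mmp13, a collagenase of hypertrophic cartilage and bone, had signals of 12.66, 12.88 and 12.74 in sham joints at 8 weeks and 13.37, 13.43 and 13.75 at time 0 (ratio -0.76 ± 0.18, adjusted p = 0.0481). Pth1r, the receptor of parathyroid hormone and its related peptide that holds back chondrocyte hypertrophy, had 9.92, 10.05 and 10.33 against 10.86, 10.61 and 10.85 at time 0 (ratio -0.67 ± 0.14, adjusted p = 0.0325). The alkaline phosphatase gene Alpl, needed for mineral deposition, had a ratio of -0.72 ± 0.20 and missed the threshold (adjusted p = 0.0958). Mef2c, a transcription factor that drives hypertrophy, had pools that overlapped and a ratio of -0.13 ± 0.12.

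The promoters of Col10a1 and Mmp13 are shown because these are the type X collagen and collagenase genes called lower, and both are known targets of the transcription factor Runx2. The windows are those of RefSeq on GRCm38.p6, from 250 bases before to 50 bases after the start site, at chr10:34389731-34390030 on the plus strand for Col10a1 and chr9:7272264-7272563 on the plus strand for Mmp13. Capitals mark matches on either strand to a TATA box (TATAAA), the core of a Runx site (TGTGGT) or an AP-1 site (TGAGTCA).
Col10a1: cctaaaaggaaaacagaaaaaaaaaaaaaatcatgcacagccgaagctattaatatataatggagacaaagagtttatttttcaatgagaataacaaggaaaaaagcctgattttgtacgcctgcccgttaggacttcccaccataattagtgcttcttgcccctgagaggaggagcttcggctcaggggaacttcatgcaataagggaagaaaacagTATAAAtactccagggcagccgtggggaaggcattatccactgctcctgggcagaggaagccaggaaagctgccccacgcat
Mmp13: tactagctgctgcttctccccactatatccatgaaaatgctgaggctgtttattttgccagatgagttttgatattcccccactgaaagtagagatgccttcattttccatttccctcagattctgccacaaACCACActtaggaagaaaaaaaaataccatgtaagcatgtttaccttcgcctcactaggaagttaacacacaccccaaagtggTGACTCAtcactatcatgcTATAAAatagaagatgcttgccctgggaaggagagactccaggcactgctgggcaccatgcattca
Both windows held the TATA box, which 13.6% of the 32851 promoter windows of mouse genes contain. The Mmp13 window also held a Runx core, found in 16.8% of windows, and an AP-1 site, found in 5.2%, and these matches do not overlap. Of the 100 called genes with a window, 6 lower and 4 higher genes had the TATA box, 11 lower and 10 higher the Runx core, and 6 lower and 1 higher the AP-1 site. These are counts of genes, while the shares are of windows, and the 100 genes were not split by direction. The counts can therefore not be set against the shares, and no difference was tested. A match describes the letters in this window and is no evidence of binding.

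Chondrocyte genes made up the largest group of falls among the 38 gene lists examined. Of 23 tested, 12 fell (against 0.574% of all genes tested) and none rose. In 16 of them sham 8 weeks pools lay below all time 0 pools (against 7.99% of all genes tested). The median ratio of the list was -0.63. The count depended on the pools, with 10 genes called without sham 8 weeks pool 3 but 4, 0, 0, 2 and 0 without sham pools 1 and 2 and time 0 pools 1, 2 and 3. With the muscle level as a covariate none was called, while the ratios stayed below 0, at -1.31 for Col9a3, -1.20 for Col2a1, -0.98 for Col11a2 and -0.52 for Acan. The counts rest on the brightest probe set of each gene. Col9a1, Matn3 and Ucma, not called there, were each called lower at another probe set.

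Of the 6 collagen genes of the cartilage fibril in the list, 4 fell. Col2a1 (chromosome 15), its main component, had signals of 12.25, 12.21 and 13.57 in the sham 8 weeks pools, against 14.09, 14.08 and 14.10 in the time 0 pools. As for Col10a1, the time 0 pools were nearly equal and sham pool 3 lay closest to them. The ratio was -1.41 ± 0.33 (adjusted p = 0.0419). Col9a3, which links fibrils to the rest of the matrix, had 9.44, 9.48 and 10.61 against 11.55, 11.29 and 11.28 at time 0 (ratio -1.53 ± 0.26, adjusted p = 0.0136). Col11a2, of the fibril core, had 9.81, 9.92 and 10.43 against 11.42, 11.21 and 11.07 at time 0 (ratio -1.18 ± 0.22, adjusted p = 0.0224), and Col9a2 fell as well (ratio -0.63). For Col9a1 the ratio was -1.90 ± 0.51, the lowest of the list, with sham pools of 10.40, 10.44 and 12.50, and it was not called at its brightest probe set (adjusted p = 0.0848). At another Col9a1 probe set, with 8.48, 8.19 and 9.63 in the sham 8 weeks pools and 10.49, 10.30 and 10.23 in the time 0 pools, it was called (ratio -1.58 ± 0.28, adjusted p = 0.0163). Col11a1, with a ratio of -1.11 ± 0.29, was not called either (adjusted p = 0.0718).

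Among the other genes of the list that fell were some of the aggrecan matrix. Aggrecan (Acan) had signals of 10.68, 10.93 and 11.09 in sham joints at 8 weeks and 11.97, 11.57 and 11.71 at time 0 (ratio -0.85 ± 0.19, adjusted p = 0.0368). The link protein Hapln1, which ties aggrecan to hyaluronan, had 9.68, 10.40 and 11.13 against 11.69, 11.52 and 11.51 (ratio -1.17 ± 0.28, adjusted p = 0.0481). Its other 3 probe sets gave ratios of -1.44, -1.17 and -1.32, of which the first was called. Epiphycan (Epyc), a small proteoglycan of growth cartilage, had a ratio of -1.25 ± 0.25, and chondromodulin (Cnmd), which keeps vessels out of cartilage, had one of -0.85 ± 0.17. The regulator Sox5 fell at its brightest probe set (ratio -0.77), while its other probe sets had ratios of -0.21 and -0.22 and were not called. The growth-restraining receptor Fgfr3 fell as well (ratio -0.48). Sox9, the master factor of chondrocytes, had a ratio of -0.29 ± 0.15 and was not called, and Sox6 was at -0.02 ± 0.20.

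Other abundant cartilage and joint surface genes were not called. Lubricin (Prg4) had signals of 14.48, 14.65 and 14.42 in the sham 8 weeks pools, against 14.73, 14.44 and 14.66 in the time 0 pools, which overlapped (ratio -0.09 ± 0.16). Comp, a matrix protein shared with tendon, was at -0.30 ± 0.17, Chad at -0.30 ± 0.15 and Cytl1, a secreted factor of cartilage, at 0.03 ± 0.17. For these genes the groups' pools also overlapped.

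**Figure D2:**
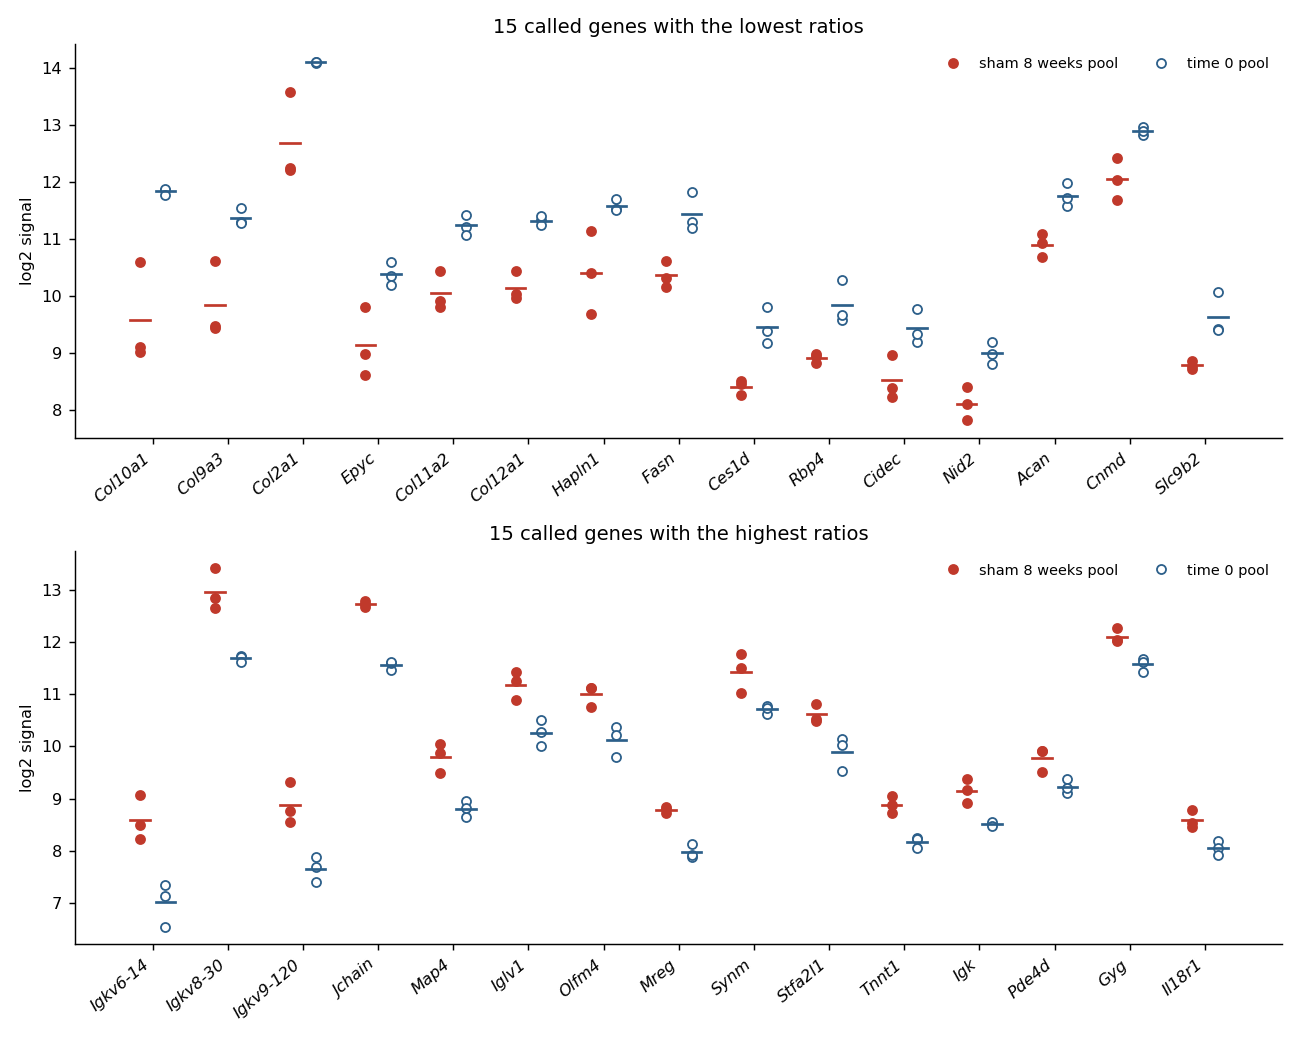
Log2 signal (vertical axis) of each sham 8 weeks pool (filled) and time 0 pool (open) for the 15 called genes with the lowest ratios (top) and the 15 with the highest (bottom), with group means as bars. In Col10a1, Col9a3 and Col2a1 sham 8 weeks pool 3 lies above the other sham pools, while the Jchain pools lie tightly together in each group.

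Bone genes had ratios below 0 with few calls. All 14 osteoblast and osteocyte genes tested had ratios below 0. Of these, 11 had sham 8 weeks pools below all time 0 pools (against 7.99% of all genes tested), and 1 fell (against 0.574%). That gene was Phex, the endopeptidase of osteocytes that restrains FGF23, with 9.92, 9.94 and 9.86 in sham joints at 8 weeks and 10.59, 10.44 and 10.71 at time 0 (ratio -0.67 ± 0.14, adjusted p = 0.0325). Dmp1, of the osteocyte matrix, had a ratio of -0.85 ± 0.23 at its brightest probe set (adjusted p = 0.0848), but was called lower at 2 others, with a ratio of -1.11 ± 0.23 at the first (adjusted p = 0.0325). Ibsp and Smpd3 of this list were likewise called lower only at probe sets other than the brightest. Periostin (Postn), of periosteum and fibrous tissue, had one of -1.07 ± 0.29 (adjusted p = 0.084). The main bone collagen genes Col1a1 and Col1a2 were at -0.22 ± 0.12 and -0.13 ± 0.10.

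Genes of the bone-resorbing osteoclast fell in part, with 2 of 9 tested, against 0.574% of all genes tested. Cathepsin K (Ctsk), which degrades bone collagen, had signals of 12.45, 12.62 and 12.31 in sham joints at 8 weeks and 13.05, 13.05 and 13.60 at time 0 (ratio -0.77 ± 0.16, adjusted p = 0.0325). Tartrate-resistant acid phosphatase (Acp5) had 13.10, 13.19 and 13.19 against 13.70, 13.63 and 14.07 at time 0 (ratio -0.64 ± 0.14, adjusted p = 0.0326). In both genes time 0 pool 3 was the highest pool. The other 7 of the 9 osteoclast genes tested were not called, and the proton pump gene Tcirg1 and carbonic anhydrase 2 (Car2), which acidify the resorption pit, were at 0.01 ± 0.09 and -0.06 ± 0.14. The cation exchanger Slc9b2, known from osteoclasts, was among the 15 lowest ratios (-0.84 ± 0.16, adjusted p = 0.0231). With any 1 of the 6 pools left out, Ctsk and Acp5 were not called.

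The wider collagen family, with members in and outside cartilage, had ratios on the same side. All 17 fibrillar and fibril-associated collagen genes tested were below 0, with a median ratio of -0.55. In 16 of them sham 8 weeks pools lay below all time 0 pools (against 7.99% of all genes tested). Of the 17 genes, 2 fell (against 0.574%). Col12a1, which decorates collagen fibrils in tendon, periosteum and ligament, had 9.96, 10.03 and 10.43 in sham joints at 8 weeks and 11.34, 11.23 and 11.39 at time 0 (ratio -1.18 ± 0.24, adjusted p = 0.0304), and Col27a1, a fibrillar collagen of cartilage, had a ratio of -0.70 ± 0.16. Col3a1, of the fibrils of synovium and capsule, had pools of 13.64, 13.98 and 14.03 against 14.42, 14.19 and 14.21 at time 0 and was not called (ratio -0.39 ± 0.20).

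The machinery that folds and crosslinks collagen had 19 ratios below 0 of 19 tested, with a median of -0.41 and 1 fall, that of Crtap (ratio -0.56 ± 0.13), a partner of the prolyl 3-hydroxylase of collagen. The chaperone Serpinh1 was at -0.70 ± 0.26 and the lysyl hydroxylase Plod2 at -0.86 ± 0.24, neither called. Single genes fell in other matrix lists, with Nid2 (ratio -0.88 ± 0.20) among 14 of basement membranes and Mmp13 among 15 proteases and inhibitors. For each list in this paragraph the share to set beside it is the 0.574% of all genes tested that fell. Mmp13 was already counted among the hypertrophic chondrocyte genes. Of 12 small leucine-rich proteoglycan genes, Epyc fell, which was already counted among the chondrocyte genes. Fibromodulin (Fmod), also in the tendon and ligament list, was not called at its brightest probe set (adjusted p = 0.108). It was called lower at others, with ratios of -0.92, -0.87, -0.82 and -0.89. None of 8 tendon and ligament genes was called at its brightest probe set. None of 19 matrix glycoprotein genes, 22 of the TGF beta and BMP pathway or 20 of IGF and other growth factors was called. Among 17 Wnt pathway genes, Wnt5b fell (ratio -0.57 ± 0.12), a ligand made by prehypertrophic chondrocytes.

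The 12 imprinted growth genes tested all had ratios below 0, with a median of -0.45. In this list 2 genes fell, both zinc finger genes of a network whose members decline as the body stops growing. Plagl1 had signals of 10.74, 10.75 and 10.96 in sham joints at 8 weeks and 11.62, 11.42 and 11.48 at time 0 (ratio -0.69 ± 0.15, adjusted p = 0.0341). Peg3 had 9.36, 9.43 and 9.69 against 10.34, 10.07 and 10.12 at time 0 (ratio -0.68 ± 0.14, adjusted p = 0.0312). In 8 of the 12 genes all sham 8 weeks pools lay below all time 0 pools, against 7.99% of all genes tested, of which 0.574% fell. With the muscle level as a covariate neither gene was called, and the ratios were -0.54 for Plagl1 and -0.47 for Peg3.

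Genes of fat cells and fat synthesis formed another group of falls. Of 13 adipocyte genes tested, 3 fell (against 0.574% of all genes tested), and the median ratio was -0.43. In 8 of them the sham 8 weeks pools lay below all time 0 pools (against 7.99% of all genes tested). Scd1 of this list was called lower only at a probe set other than its brightest (ratio -0.82 ± 0.19, adjusted p = 0.0481). Cidec, a coat protein of lipid droplets, had 8.39, 8.23 and 8.97 in sham joints at 8 weeks and 9.78, 9.20 and 9.34 at time 0 (ratio -0.91 ± 0.20, adjusted p = 0.0386). Resistin (Retn), a hormone of mouse fat cells, had a ratio of -0.69 ± 0.14, and hormone-sensitive lipase (Lipe), which releases fatty acids from stored fat, had one of -0.58 ± 0.13. Adiponectin (Adipoq), a hormone secreted by fat cells, had 12.05, 11.92 and 12.13 against 13.02, 12.65 and 12.87 at time 0 and missed the threshold (ratio -0.81 ± 0.21, adjusted p = 0.074).

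Fatty acid synthase (Fasn), which builds long-chain fatty acids, had signals of 10.32, 10.15 and 10.61 in sham joints at 8 weeks, against 11.83, 11.30 and 11.19 at time 0 (ratio -1.08 ± 0.22, adjusted p = 0.0325). It was 1 of 3 genes that fell of the 16 tested for cholesterol and fatty acid synthesis, with Acaca, which supplies the malonyl units (ratio -0.54 ± 0.13), and Insig1, a brake on sterol synthesis (ratio -0.49 ± 0.09). The median of that list was -0.12, and of all genes tested 0.574% fell. Me1 of that list was called lower only at a probe set other than its brightest (ratio -0.62 ± 0.13, adjusted p = 0.0341). The carboxylesterase Ces1d, a lipid-hydrolysing enzyme of fat and liver, had 8.45, 8.27 and 8.50 in sham joints at 8 weeks and 9.81, 9.19 and 9.38 at time 0 (ratio -1.05 ± 0.16, adjusted p = 0.00372). It was called in every leave-one-out fit and with the muscle level as a covariate (ratio -1.05, adjusted p = 0.0378), but not with the 6 arrays alone. Over its alternatives, the fits with array weights among them, its adjusted p ranged from 1.29e-05 to 0.0755. Rbp4, the carrier of retinol, also fell (ratio -0.92 ± 0.21). The fat list had mean levels of 10.83, 10.57 and 10.80 in the sham 8 weeks pools, against 11.34, 11.01 and 11.11 in the time 0 pools.

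**Figure D3:**
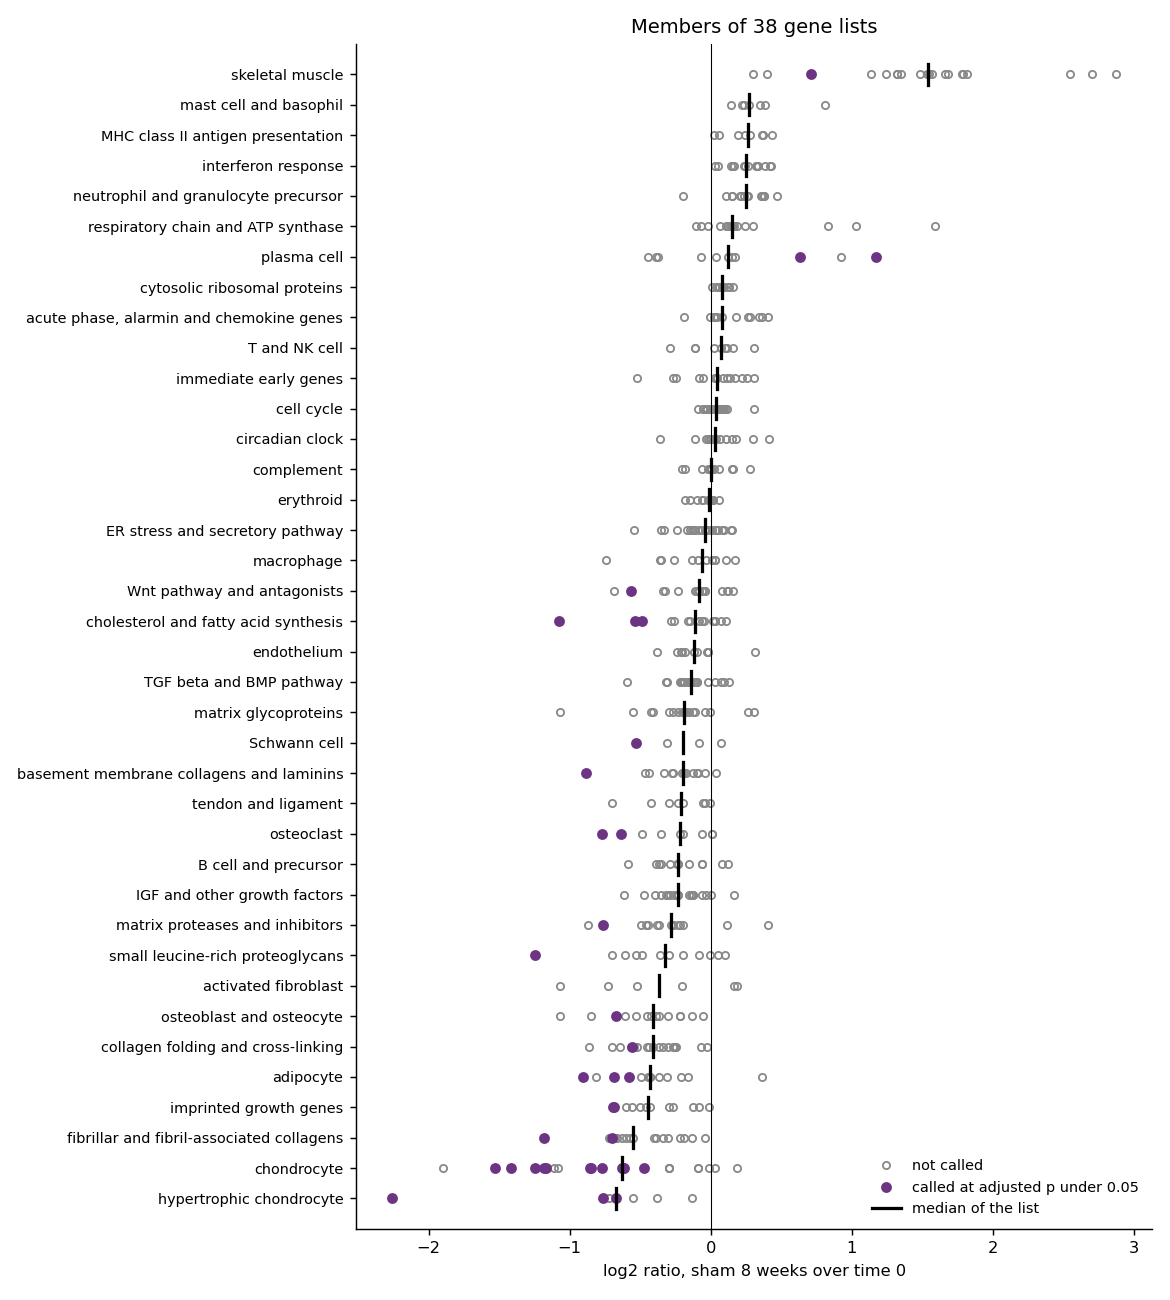
Log2 ratio of sham 8 weeks over time 0 (horizontal axis) for each tested member of 38 gene lists, ordered by the median of the list (black bar). Filled points are genes called at an adjusted p under 0.05; the chondrocyte list has 12 of them, all below 0, whereas the skeletal muscle list lies wholly above 0 with 1 called gene.

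Immunoglobulin genes were the leading genes that rose. Jchain (chromosome 5), the peptide that joins IgA and IgM chains into polymers and is made by plasma cells, had signals of 12.80, 12.68 and 12.73 in the sham 8 weeks pools, against 11.48, 11.60 and 11.62 in the time 0 pools. Within each group the pools lay close together and the groups were more than 1 log2 unit apart. The ratio was 1.17 ± 0.15, a 2.25-fold higher level (adjusted p = 0.00372). It was called in all 16 alternative fits, with ratios between 0.99 and 1.20.

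Among antibody light chain genes, Igkv8-30 had signals of 12.65, 12.84 and 13.41 in the sham 8 weeks pools and 11.74, 11.72 and 11.61 in the time 0 pools (ratio 1.27 ± 0.19, adjusted p = 0.00372). Igkv6-14 had 8.23, 8.50 and 9.07 against 7.35, 7.14 and 6.55 at time 0 (ratio 1.59 ± 0.23, adjusted p = 0.00372). In both, sham pool 3 was the highest pool. Igkv9-120, Iglv1 and Igk rose with ratios of 1.23 ± 0.28, 0.93 ± 0.20 and 0.63 ± 0.14. The time 0 pools of Igkv9-120, at 7.40, 7.89 and 7.68, were also below the filter. Variable segments of the same light chain family can share sequence, so that a probe set named for 1 of them may read others.

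Other plasma cell genes did not follow as a group. Of 11 tested, Jchain and Igk rose, against 0.461% of all genes tested, and the median ratio was 0.12. Igha, the heavy chain of IgA, had signals of 13.78, 13.41 and 12.30 in sham joints at 8 weeks and 12.22, 12.43 and 12.07 at time 0, with sham pool 3 inside the range of time 0 (ratio 0.92 ± 0.28, adjusted p = 0.118). Ighm, the heavy chain of IgM, was at 0.12 ± 0.33. Mzb1, a chaperone of antibody secretion, was at 0.04 ± 0.19 and the transcription factor Irf4 at -0.39 ± 0.20. None of 13 B cell and precursor genes was called, and 11 of them had ratios below 0. Their mean level was 10.18, 9.97 and 9.14 in the sham 8 weeks pools, against 9.77, 10.23 and 9.94 in the time 0 pools, so that sham pool 3 alone lay below the range of time 0.

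Muscle genes had the largest ratios of all lists and the largest spread. Myh2, a fast myosin heavy chain, had signals of 11.50, 10.47 and 10.13 in sham joints at 8 weeks and 6.81, 8.78 and 7.89 at time 0 (ratio 2.87 ± 1.01, adjusted p = 0.168). Time 0 pools 1 and 3 of Myh2 lay below the signal filter of 7.93. Myoglobin (Mb) had 12.97, 11.54 and 10.93 against 8.06, 10.26 and 9.01 at time 0 (ratio 2.70 ± 0.89, adjusted p = 0.144). Tnnt1, troponin T of slow fibers, was the 1 called gene of the 20, against 0.461% of all genes tested called higher. It had 8.72, 8.88 and 9.05 against 8.25, 8.22 and 8.05 at time 0 (ratio 0.71 ± 0.10, adjusted p = 0.00372). Its order over the sham pools was the reverse of that of the muscle list, which was highest in sham pool 1, and it was still called with the muscle level as a covariate (ratio 0.65). Synm, an intermediate filament protein of muscle, rose (ratio 0.72 ± 0.17), as did Gyg, the primer of glycogen (ratio 0.53 ± 0.12). Map4, a microtubule protein, rose in its brightest probe set (ratio 0.99 ± 0.24), while its other 3 probe sets had ratios of 0.14, 0.06 and 0.17 and were not called.

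The remaining leading genes that rose included Olfm4 and Il18r1. Olfm4, a granule protein of a subset of neutrophils, had 11.12, 11.12 and 10.76 in sham joints at 8 weeks and 9.80, 10.37 and 10.22 at time 0 (ratio 0.87 ± 0.16, adjusted p = 0.0224). Stfa2l1, of the stefin family of protease inhibitors, had a ratio of 0.72 ± 0.16. The interleukin 18 receptor gene Il18r1 had 8.46, 8.53 and 8.78 against 8.19, 8.05 and 7.93 at time 0 (ratio 0.53 ± 0.09, adjusted p = 0.0127) and kept its call with the muscle level as a covariate. Mreg, of melanosome transport, and Pde4d, which degrades cyclic AMP, rose with ratios of 0.81 ± 0.18 and 0.54 ± 0.13.

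The other marrow and immune lists gave no calls. None of 14 neutrophil and granulocyte precursor genes was called, of which 13 had ratios above 0 (median 0.25), and the granule protein genes Ctsg and Prtn3 were at 0.47 ± 0.21 and 0.37 ± 0.22. The mean level of the list was 13.99, 13.93 and 14.41 in the sham 8 weeks pools and 13.94, 13.88 and 13.80 in the time 0 pools, with sham pool 3 the highest. All 8 genes of MHC class II antigen presentation had ratios above 0, with H2-Eb1 at 0.43 ± 0.13 and its pools apart, and none was called. In this list sham pool 3 was the lowest of the sham pools, with levels of 10.43, 10.41 and 10.07 in the sham 8 weeks pools and 10.04, 10.07 and 10.06 in the time 0 pools. The 14 interferon response genes had ratios above 0 with a median of 0.25, and none was called. Their level was 9.34, 9.57 and 10.13 in the sham 8 weeks pools and 9.60, 9.33 and 9.36 in the time 0 pools, so that sham pool 3 alone lay above the range of time 0. Of 7 mast cell and basophil genes, the IgE receptor chain Fcer1a came closest (ratio 0.81 ± 0.20, adjusted p = 0.0643). No gene was called among 12 macrophage, 9 T and NK cell, 14 erythroid, 24 cell cycle, 14 circadian clock, 15 immediate early, 13 acute phase and 12 complement genes. Ribosomal protein genes were at ratios between 0.01 and 0.15, none called.

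The sham 8 weeks pools were also compared with the sham pools of the neighboring time points, 4 and 16 weeks after surgery. The comparisons share the sham 8 weeks pools, so that their values are given side by side. No probe set was called between sham 8 weeks and sham 4 weeks (0% of 22513, although limma gave 2492 of them an unadjusted p below 0.05), and 2 were called between sham 16 weeks and sham 8 weeks (0.00888%). Col10a1 averaged 11.83 at time 0 and 11.23, 9.89, 9.58 and 8.34 in sham joints at 2, 4, 8 and 16 weeks. Its ratio of sham 8 over sham 4 weeks was -0.32 ± 0.34 and that of sham 16 over sham 8 weeks -1.24 ± 0.34 (adjusted p = 0.246). Col2a1 averaged 14.09, 13.87, 13.03, 12.68 and 10.92 at the same times, with a ratio of -1.76 ± 0.33 for sham 16 over sham 8 weeks (adjusted p = 0.0932).

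Cnmd averaged 12.89 at time 0 and 12.70, 12.13, 12.04 and 10.86 in sham joints at 2, 4, 8 and 16 weeks, and fell again at 16 weeks relative to 8 weeks (ratio -1.18 ± 0.17, adjusted p = 0.0282). Fasn showed another course, with 11.44 at time 0 and 10.39, 10.09, 10.36 and 10.05 at 2, 4, 8 and 16 weeks, so that its level was already low in sham joints at 2 weeks. Jchain averaged 11.56 at time 0 and 11.94, 12.77 and 12.74 in sham joints at 2, 4 and 8 weeks, with ratios of -0.03 ± 0.15 for sham 8 over sham 4 weeks and 0.26 ± 0.15 for sham 16 over sham 8 weeks, neither called, and its mean was highest at 16 weeks. Tnnt1 averaged 8.18 at time 0 and 8.35, 8.38, 8.89 and 8.66 in sham joints at 2, 4, 8 and 16 weeks, and was highest in sham joints at 8 weeks, where its ratio over sham 4 weeks was 0.51 ± 0.10 and not called (adjusted p = 0.125).

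**Figure D4:**
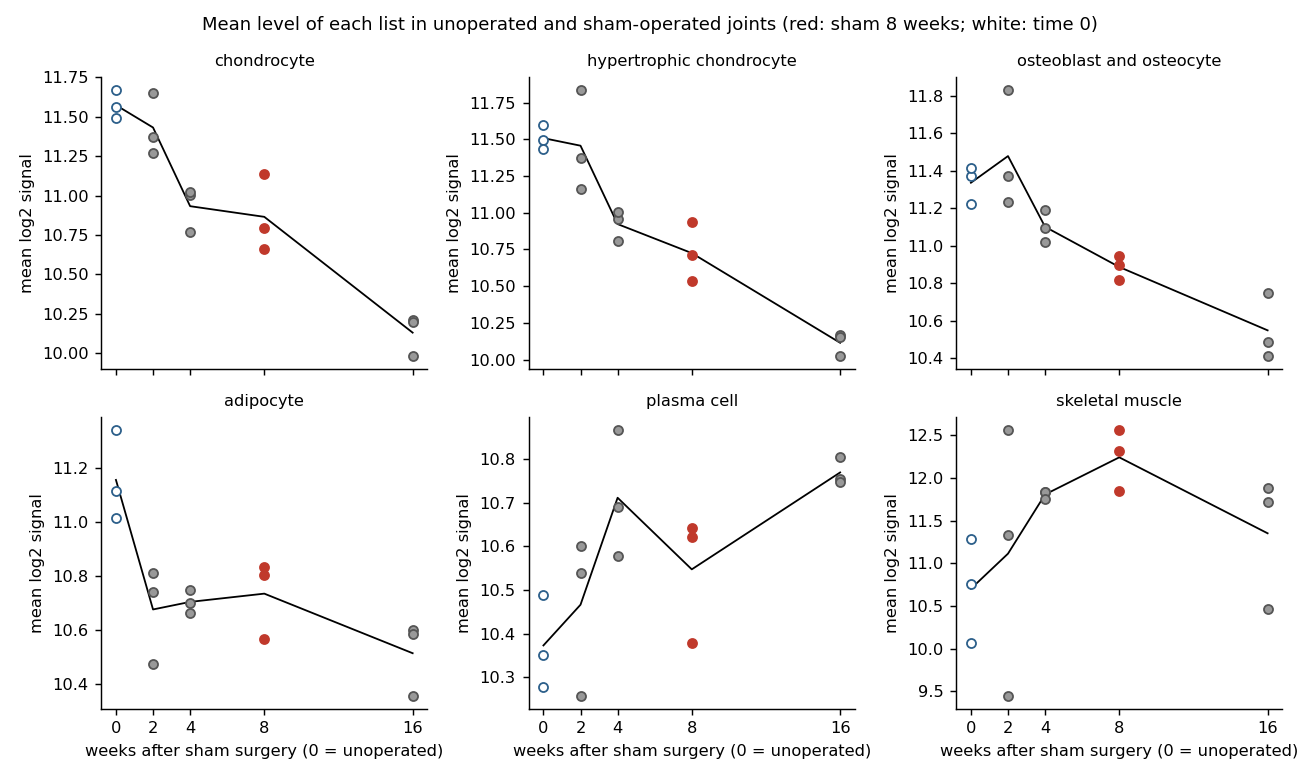
Mean log2 signal of the tested members of 6 gene lists (vertical axes) in each pool from unoperated joints (0 weeks, open) and from sham-operated joints at 2, 4, 8 (red) and 16 weeks (horizontal axes), with lines through the group means. The chondrocyte list is lowest in all 3 pools at 16 weeks, and the skeletal muscle list spreads most between the pools at 2 weeks.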

How the data were processed

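The authors hybridised total RNA to Affymetrix whole-genome mouse arrays and deposited log2 signals for 45101 probe sets, normalized by the systematic variation method; these values were used unchanged (array medians 7.90 to 7.95). The study selected genes by detection and fold filters passed in every replicate and by the consistency of the time courses between replicates. It reported no test of differential expression with a p-value on the arrays. Here limma 3.58.1 in R 4.3.3 fitted 1 mean per condition to all 26 arrays (9 groups of 3 pools, but 2 for DMM at 2 weeks; 17 residual degrees of freedom), and tests covered the 22513 probe sets whose mean log2 value exceeded 7.93, the median of the table. Moderated tests were two-sided. The number of arrays limits the precision, and an exact test of 3 pools against 3 cannot go below p = 0.1. The fit was tested on simulated data.

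Gene names came from GEO's platform annotation (34958 probe sets with 1 symbol, 932 with several, 9211 with none), and only those with 1 symbol entered gene results. Of the 84 other tested probe sets of called genes, 67 had the sign of the brightest, 10 were called with it, and none was called with the other sign; 9 list genes not called at their brightest probe set were called at another. The members, the 38 gene lists and the tests were chosen with earlier results of these data known. Named genes are the 15 highest and 15 lowest called ratios and, per list, the 2 brightest genes and the 2 with the largest ratios. Alpl, Chad, Col11a1, Col27a1, Col9a2, Crtap, Cytl1, Fgfr3, Ibsp, Insig1, Irf4, Lipe, Matn3, Me1, Mzb1, Phex, Pth1r, Retn, Scd1, Smpd3, Sox5, Sox6, Sox9, Tcirg1 and Ucma were chosen after their values were seen. Promoter windows are from RefSeq (GRCm38.p6), matched by symbol for 100 of the 119 called genes. Alternatives were the signal filter, the arrays fitted, the replicate number as a block, array weights, quantile normalization, muscle and Gapdh covariates, and each pool left out. A further one was the study's threshold of 0.5 in every pool, without its detection and consistency filters. The labels give no batch for the pools.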

Additional observations from a re-analysis of the deposited data

Results flagged for a closer look

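The difference between sham joints at 16 and at 8 weeks passed the test for 2 genes. Cnmd had a log2 ratio of -1.18 for sham 16 over sham 8 weeks (adjusted p = 0.0282), with mean log2 signals of 10.86 and 12.04. Grb14, an adaptor that restrains insulin receptor signaling, had a ratio of -0.53 (adjusted p = 0.0305), with means of 8.28 and 8.81. Its ratio of sham 8 weeks over time 0 was -0.26 and was not called (adjusted p = 0.134). No group has more than 3 pools, so that no pool was called an outlier and the main fit kept every pool. Single pools were looked at only through the principal components, the array weights and the fits with a pool left out.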

How the results depend on the processing

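All 119 genes called in sham joints at 8 weeks against time 0 kept the sign of their ratio under every alternative that tested them. That sign could not change with signal filters, other sets of arrays, array weights or left-out pools, since the pools of these genes did not overlap. The count of 211 called probe sets became 51 with no signal filter, 2 with the 6 arrays alone, 12 with only time 0 and sham arrays and 18 with the muscle level as a covariate. It was 4169 with array weights, whose estimation did not converge, and 2576 with weights estimated gene by gene, chosen after seeing the data. With 1 pool left out it lay between 14 and 198. It was 172 under a stricter signal filter of 9.18, 271 with the replicate block, 184 with quantile normalization, 157 with the Gapdh 3 prime minus 5 prime difference as a covariate and 220 by the study's threshold. Deviations from the group means of same-numbered sham 8 weeks and time 0 pools correlated at -0.25, 0.08 and -0.42. Those of unlike-numbered pools correlated at -0.12 to 0.38. Deviations from a mean of 3 pools are not independent, so that these values cannot show whether the numbers pair the pools. The paper states that its replicate pools were put together at random into time courses. Of the 119 genes, 115 stayed called with the block, 94 with quantile normalization, 83 with the Gapdh covariate, 24 with no filter, 10 with the muscle covariate and 1 with the 6 arrays alone.

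For sham 8 against sham 4 weeks, where no probe set was called, the count was 1 with no filter, 1141 with array weights, 217 with weights gene by gene, 36 by the study's threshold and 0 to 34 with 1 pool left out (34 without sham 8 weeks pool 1 and 27 without sham 4 weeks pool 3). For sham 16 against sham 8 weeks, the count of 2 became 1 with no filter, 0 with the 6 arrays alone, 1 with time 0 and sham arrays, 4 with the replicate block, 5491 with array weights, 2901 with weights gene by gene, 205 with the muscle covariate, 1 with the Gapdh covariate, 63 by the study's threshold and 0 to 34 with 1 pool left out. The cause of these moves was not tested. The Gapdh 3 prime minus 5 prime difference was 0.31, 0.35 and 0.23 in the sham 8 weeks pools and 0.21, 0.21 and 0.28 in the time 0 pools.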

Other observations

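Several called genes outside the lists belong to shared roles; they were chosen after their values were seen. Mccc1 and Mccc2, the subunits of the enzyme that breaks down leucine in mitochondria, both fell (ratios -0.36 ± 0.07 and -0.30 ± 0.07). Ephx2, an epoxide hydrolase of lipid mediators, had log2 signals of 8.50, 8.36 and 8.55 in the sham 8 weeks pools and 9.38, 9.02 and 9.17 in the time 0 pools (ratio -0.72 ± 0.10, adjusted p = 0.00372), and Slc25a1, the mitochondrial citrate carrier that feeds fat synthesis, fell too (ratio -0.41 ± 0.08).

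Some single genes known from leukocytes rose, while the neutrophil, macrophage, and T and NK cell lists had no called gene. Fermt3, an integrin activator of blood cells, had 13.33, 13.29 and 13.43 in the sham 8 weeks pools and 12.97, 13.02 and 12.98 in the time 0 pools (ratio 0.36 ± 0.07, adjusted p = 0.0268). Il18rap, the partner of Il18r1 in the interleukin 18 receptor, had a ratio of 0.39 ± 0.08, Mpeg1, a pore-forming protein of phagocytes, 0.30 ± 0.06, and Spn, a sialoprotein of the leukocyte surface, 0.37 ± 0.08. Other probe sets of Fermt3, Il18rap and Spn had ratios above 0 that were not called. The amino acid transporter Slc7a8 rose as well, with 9.78, 9.50 and 9.74 in the sham 8 weeks pools, against 9.20, 9.20 and 9.05 in the time 0 pools (ratio 0.52 ± 0.08, adjusted p = 0.00372). Gapdh, often taken as a constant reference, had a ratio of 0.36 ± 0.08 at its brightest probe set, a 3 prime control of the array (adjusted p = 0.0338).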
